A study of Gallus gallus with 14 samples.

Results

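The genes described here belong to families of the machinery that docks, primes, fuses and retrieves synaptic vesicles. Some members of these families act at other membrane steps. They were chosen by gene symbol, with earlier results of these data known. The rule covered the synaptotagmin (SYT), syntaxin (STX), syntaxin-binding protein (STXBP), VAMP, SNAP, synapsin (SYN) and synaptojanin (SYNJ) families. It also covered the SV2, RAB3, UNC13, RIMS, synaptogyrin (SYNGR) and dynamin (DNM) families, and NSF, SYP, BSN, PCLO, ERC2 and CTBP2 where listed. The rule took 71 of 18631 listed genes. The retinas came from wild-type White Leghorn chicks. In the lens group, 7 retinas (46, 47, 48, 51, 53, 54 and 55) were collected after 6 days behind a -10 D lens fitted at 3 days of age, and the 7 controls (57, 58, 59, 62, 63, 64 and 65) were labelled as control retina, with day 3 given as the age of both groups. A negative lens moves the image plane behind the retina and drives the chick eye to elongate. Each library was total RNA of retina, with its cell types mixed, after ribosomal RNA depletion, so a lower value can stand for fewer cells of a type or for less RNA per cell, and these cannot be told apart.

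At a chemical synapse, vesicles are filled with transmitter, tethered at the active zone, primed by UNC13 proteins, and fused when calcium binds a synaptotagmin and the SNARE proteins zip together. NSF then takes the spent SNARE complexes apart, and dynamin, synaptojanin and clathrin adaptors return the membrane for another round. In the retina, photoreceptors and bipolar cells release glutamate continuously at ribbon synapses, whereas amacrine cells use conventional synapses. In mammals the ribbon is built on RIBEYE, a product of CTBP2, and the scaffolds Bassoon (BSN) and Piccolo (PCLO), and it uses syntaxin 3 where conventional synapses use syntaxin 1.

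Levels are given in CPM, reads scaled to the total of the library, and were compared only between samples of the same gene, since the values are not per length. A single read was worth 0.0235 to 0.0309 CPM, judged by the spacing of the lowest values, which puts library depth at 32.3 to 42.6 M reads. The groups were compared with limma on log2(CPM + 1) over the 11132 genes that reached 1 CPM in 7 or more of the 14 samples, with Benjamini-Hochberg adjustment across them and a threshold of 0.05. Listed genes held 31.7% to 33.3% of the scaling total in lens and 32.9% to 34.2% in control libraries, and the log2 difference over all tested genes had a median of -0.04 unscaled and of 0.00 (-6.89e-04) after trimmed-mean scaling (TMM). Control 65, lens 48 and lens 55 had almost no W-linked transcripts, 0.619 to 2.75 CPM summed over 30 genes against 611 to 715 CPM in the other 11 libraries. In birds the W chromosome is carried by females. Markers of photoreceptors (12 of 13 listed), bipolar cells (8 of 8), amacrine cells (10 of 10) and Muller glia (6 of 7) were at 1 CPM or more on average, and 7 of 10 listed markers of pigment epithelium, blood and vessels were under 1 CPM.

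Most of the genes taken by the rule and tested did not pass after 6 days of lens wear. Of the 71 genes, 60 were expressed highly enough to be tested. The fallen genes were SYNJ1 and DNM1 of vesicle retrieval, the active zone scaffold PCLO, the inhibitor of SNARE assembly STXBP5L and the synapsin SYN2, and the gene that rose was STXBP4. Thus 5 were lower, against a background of 1.84% of all tested genes, and 1 was higher, against 0.916%, while 54 did not pass (2.76% of all tested genes were called in 1 or the other direction). As shares of the 60, these were 8.33% and 1.67%. The median log2 difference of the 60 was -0.04, the same as for all tested genes, and 38 of 60 (63.3%) were negative beside 65% of all tested genes. The median of the 60 became 0.00 (0.00115) with TMM factors, with 29 negative values, so the slight lean of the set as a whole depended on scaling. SYNJ1, DNM1, STXBP5L and STXBP4 kept their calls under all 4 other scalings tried (TMM, median of ratios, a common sum over listed genes, and quantile normalization), and PCLO and SYN2 lost theirs under each of them. In that order, these scalings called 0.943%, 0.961%, 1.16% and 1.1% of all tested genes lower and 1.37%, 1.42%, 1.32% and 1.41% higher.

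**Figure D1:**
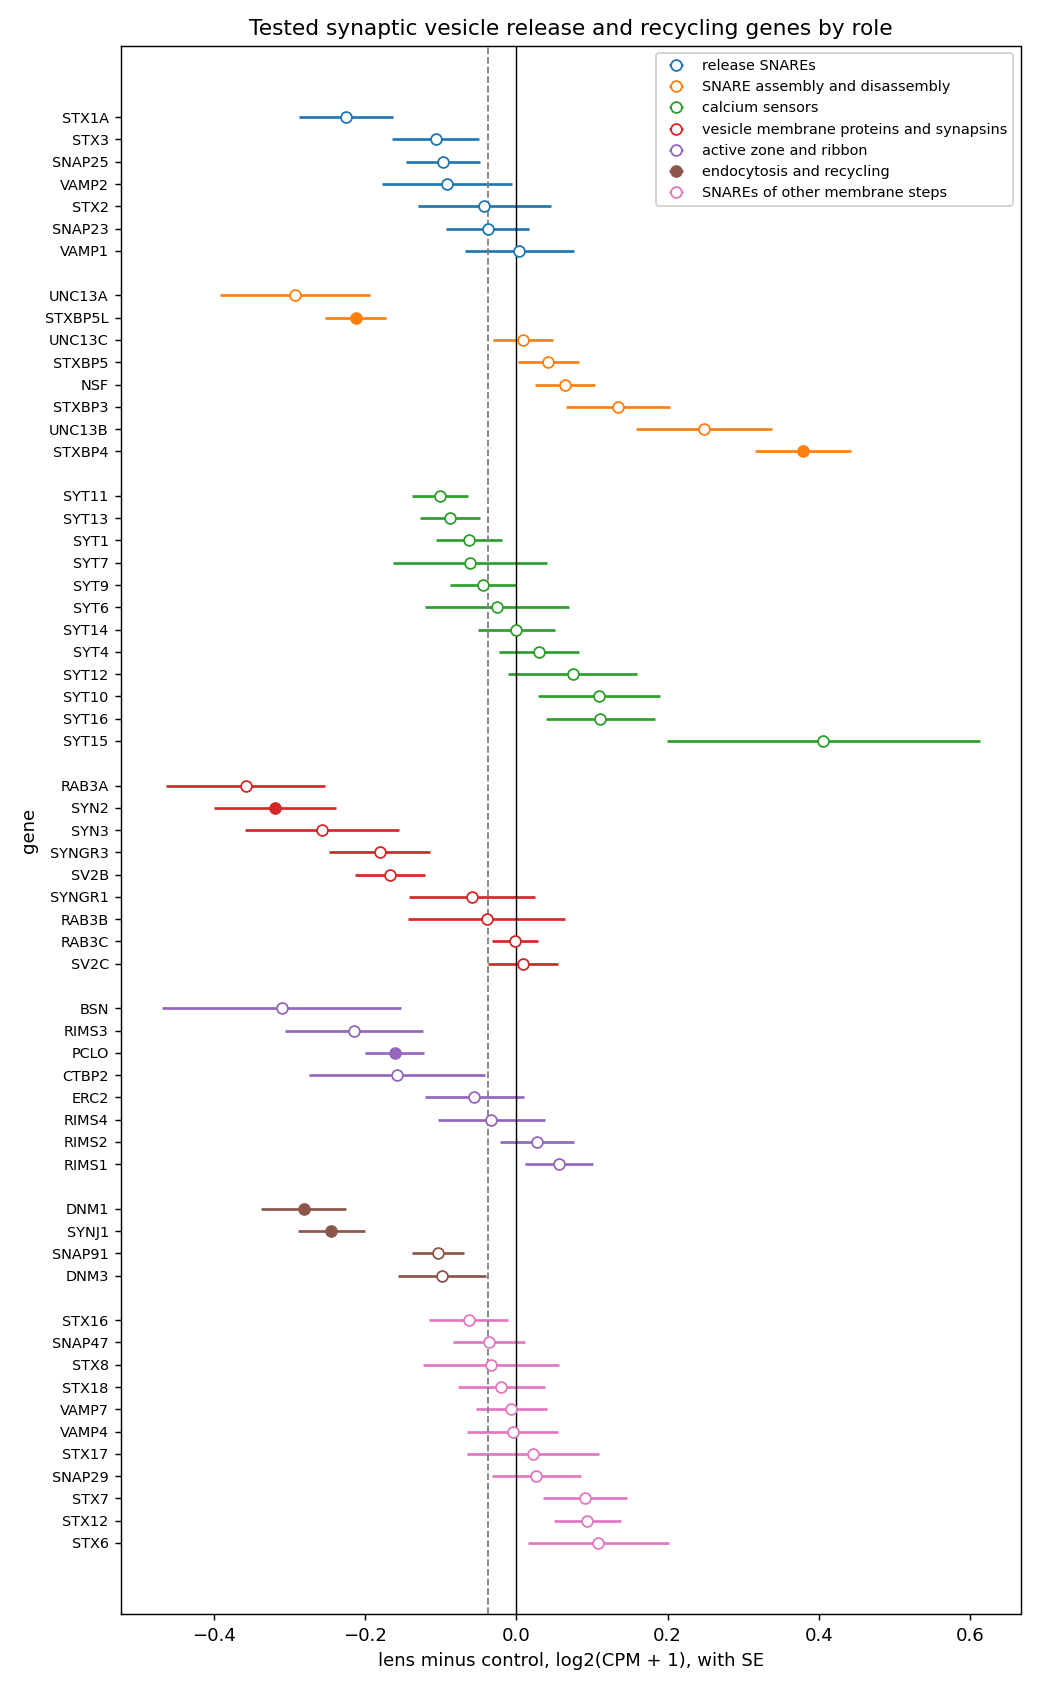
Lens minus control difference on the log2(CPM + 1) scale (horizontal axis) for 59 of the 60 tested genes, grouped and coloured by role, with the standard error of the fit as bars. Filled points passed adjusted p 0.05, the solid line marks 0 and the dashed line the median of all tested genes. The 4 retrieval genes all lie left of the dashed line, and STXBP4 and STXBP5L, with filled points, lie on opposite sides of 0.

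Of the vesicle retrieval genes that the symbol rule took, 2 of 4 tested fell and 2 did not pass, where 1.84% of all tested genes were lower. Further retrieval genes, such as clathrin adaptors and endophilins, are in the second list described below. Of the retrieval genes in that list only GAK was called, and its call was lost with TMM factors (limma adjusted p = 0.135). The median log2 difference of the 4 was -0.17 (-0.13 with TMM factors). SYNJ1 (chromosome 1, 106350128 to 106412029 on GRCg6a, minus strand) encodes synaptojanin 1, the lipid phosphatase that lets clathrin coats come off retrieved vesicles, and its loss in zebrafish disturbs cone synapses. Its level ranged from 139 to 164 CPM with a median of 149.9 CPM in control and from 115 to 137 CPM with a median of 127 CPM in lens retinas. Every lens retina lay below every control. SYNJ1 fell by 0.24 ± 0.044 on the log2 scale (SE, limma adjusted p = 0.00425), from 151 ± 8.90 CPM in controls to 127 ± 6.86 CPM (mean ± SD, n = 7 each). The groups did not overlap in 4 of the 60 tested genes (6.67%), where 1.53% of all tested genes had no overlap. Lens values lay below in 3 of the 4 (0.97% of all tested genes) and above in 1 (0.557%).

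DNM1 (chromosome 17, 5385986 to 5447146, minus strand) encodes dynamin 1, the GTPase that cuts budding vesicles from the membrane. It ranged from 83.9 to 97.6 CPM with a median of 93.3 CPM in control and from 66.3 to 86.4 CPM with a median of 73.7 CPM in lens retinas. Lens 55, at 86.4 CPM, was inside the control range, and the other 6 lens retinas were below it. DNM1 fell by 0.28 ± 0.056 (SE, limma adjusted p = 0.00941), from 91.0 ± 5.57 CPM in controls to 74.9 ± 7.0 CPM (mean ± SD, n = 7 each). The call was lost when each gene was tested by exact permutation (adjusted p = 0.0649, range over alternatives 0.00233 to 0.0649), a test that called 0.97% of all tested genes lower and 0.557% higher. Over all tested genes, that test called the 170 genes whose groups did not overlap and no others, so the lost call restates the position of lens 55 inside the control range. The neuronal paralog DNM3 measured 44.0 ± 3.96 CPM in controls and 41.0 ± 2.56 CPM after lens wear (mean ± SD, n = 7 each, limma adjusted p = 0.424). SNAP91, the clathrin adaptor AP180 that despite its symbol is no SNARE, measured 103 ± 3.85 CPM and 95.7 ± 3.23 CPM (mean ± SD, n = 7 each), with an adjusted p = 0.137 in limma. The second synaptojanin, SYNJ2, stayed under 1 CPM in every library and was not tested.

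**Figure D2:**
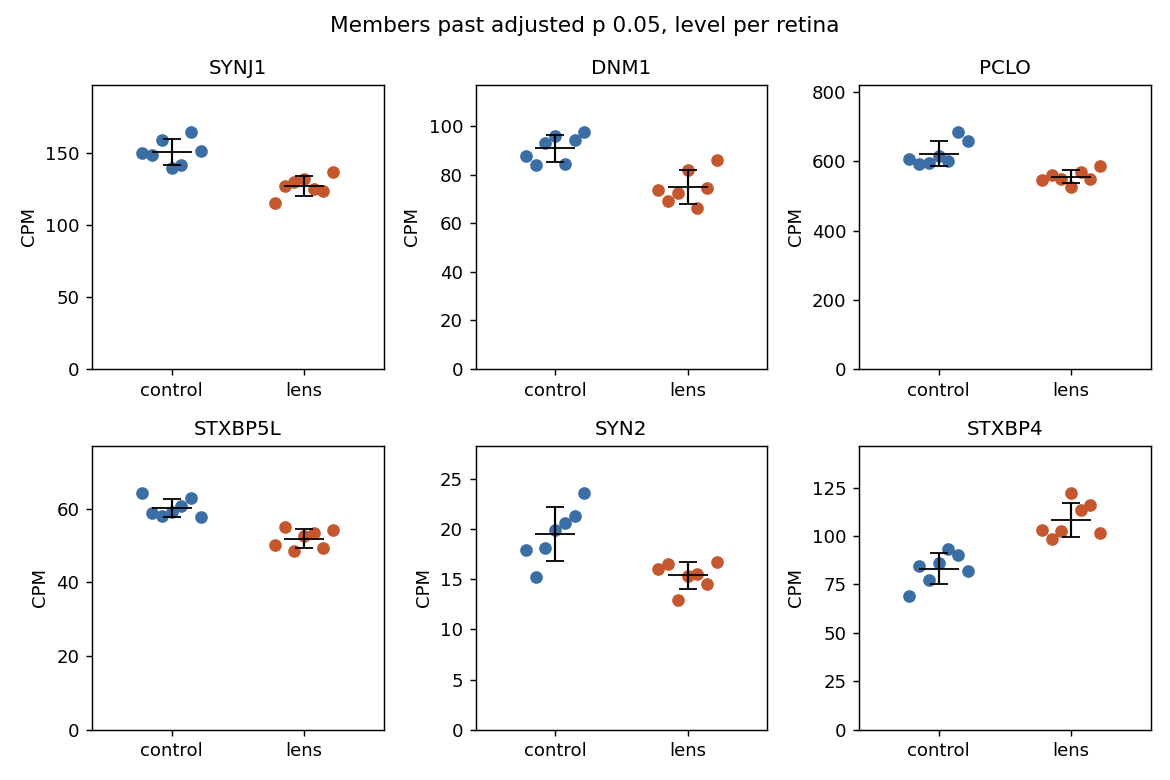
Level in CPM (vertical axis, from 0) in each of 7 control and 7 lens retinas for the 6 genes that passed adjusted p 0.05, with mean and SD as black bars. SYNJ1, PCLO and STXBP5L show all lens points below all control points, STXBP4 shows them above, and DNM1 and SYN2 overlap.

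In the active zone and ribbon group, 1 of 8 tested genes fell and 7 did not pass, where 1.84% of all tested genes were lower. The median log2 difference of the 8 was -0.11 (-0.06 with TMM factors). PCLO (chromosome 1, 9888098 to 10217661, plus strand) encodes Piccolo, a very large scaffold of active zones and ribbons. It ranged from 592 to 684 CPM with a median of 608 CPM in control and from 527 to 588 CPM with a median of 551 CPM in lens retinas, with no overlap. PCLO fell by 0.16 ± 0.039 (SE, limma adjusted p = 0.0341), from 622 ± 35.6 CPM in controls to 556 ± 19.2 CPM (mean ± SD, n = 7 each). Scaling by TMM ended the call (adjusted p = 0.128), as did leaving out 1 library in 8 of 14 cases, within 0.0199 to 0.317 over its alternatives. The libraries whose removal ended it were control 57, 64 and 65 and lens 46, 47, 48, 51 and 54. With the unexplained letter of the sample titles (L or R) as covariate, adjusted p was 0.0517, where 1.51% of all tested genes were lower and 0.844% higher.

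The other scaffold genes had no call in either direction. BSN, which encodes the Piccolo relative Bassoon, measured 5.79 ± 1.39 CPM in controls and 4.54 ± 1.44 CPM after lens wear (mean ± SD, n = 7 each, limma adjusted p = 0.348). CTBP2, which in vertebrates also encodes the ribbon protein RIBEYE from its own start, measured 25.9 ± 4.27 CPM and 23.2 ± 4.87 CPM (mean ± SD, n = 7 each), with limma adjusted p = 0.553. Gene-level values do not separate RIBEYE from the transcriptional corepressor made from the same gene. RIMS1 and RIMS2, which tether calcium channels and vesicles, had log2 differences of 0.06 ± 0.045 (SE) and 0.03 ± 0.048 (SE). ERC2, which binds RIM proteins, had -0.06 ± 0.066 (SE). RIMS3 and RIMS4 encode short RIM forms, and RIMS3 went from 3.23 ± 0.555 CPM in controls to 2.63 ± 0.364 CPM (mean ± SD, n = 7 each) with limma adjusted p = 0.249.

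The syntaxin-binding protein, UNC13 and NSF genes, grouped here by their part in SNARE assembly and disassembly, held 2 calls of opposite sign. Both were syntaxin-binding protein genes, and NSF and the UNC13 genes were not called. Of 9 tested in this group, 1 rose, 1 fell and 7 did not pass, where 0.916% of all tested genes were higher and 1.84% lower. The median log2 difference of the 9 was 0.04 (0.08 with TMM factors). STXBP4 (chromosome 18, 5836744 to 5893006, plus strand) encodes a syntaxin 4 binding protein first described in mouse insulin-responsive cells. It ranged from 69.2 to 93.1 CPM with a median of 84.5 CPM in control and from 98.5 to 122 CPM with a median of 103 CPM in lens retinas. All 7 lens retinas lay above every control. STXBP4 rose by 0.38 ± 0.064 (SE, limma adjusted p = 0.00225), from 83.1 ± 8.03 CPM in controls to 108 ± 8.92 CPM (mean ± SD, n = 7 each), and it was called in all 28 alternatives, with adjusted p between 6.81e-04 and 0.0382.

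The surroundings of STXBP4 in the genome were examined because neighbouring or overlapping transcripts can share reads. Directly before it on the other strand lies the cytochrome oxidase assembly gene COX11 (5834881 to 5836681), at 4.53 ± 0.850 CPM in controls and 4.72 ± 0.791 CPM after lens wear (mean ± SD, n = 7 each). After it on the same strand comes HLF (5906620 to 5940017), a clock-controlled transcription factor. HLF moved the opposite way, from 265 ± 12.8 CPM in controls to 231 ± 8.35 CPM (mean ± SD, n = 7 each), a log2 difference of -0.20 ± 0.037 (SE, limma adjusted p = 0.0048). Overlapping STXBP4 on the minus strand are LOC107052250 and LOC112530014, each under 1 CPM in both group means. The strand setting of the counting is not given in the sources used here.

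STXBP5L (chromosome 1, 80273743 to 80460541, minus strand) encodes tomosyn 2, which holds syntaxin and SNAP25 in complexes that cannot take part in fusion. It ranged from 57.7 to 64.3 CPM with a median of 59.3 CPM in control and from 48.4 to 55.2 CPM with a median of 52.5 CPM in lens retinas, with no overlap. STXBP5L fell by 0.21 ± 0.040 (SE, limma adjusted p = 0.00581), and it was called in all 28 alternatives (adjusted p from 0.00309 to 0.0382). The related tomosyn 1 gene STXBP5 measured 165 ± 3.80 CPM in controls and 171 ± 11.1 CPM after lens wear (mean ± SD, n = 7 each), with limma adjusted p = 0.655. NSF, the ATPase that pulls SNARE complexes apart, measured 212 ± 11.1 CPM and 222 ± 9.28 CPM (mean ± SD, n = 7 each), with limma adjusted p = 0.458. For NSF, 4 of 7 lens retinas were above every control. STXBP3, a syntaxin-binding protein of wider tissue expression, measured 9.61 CPM in controls and 10.6 CPM after lens wear (limma adjusted p = 0.347). STXBP3 shares 1074 bases with GPSM2 on the same strand, which was at 51.4 CPM in controls and 44.7 CPM after lens wear.

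The UNC13 priming factors had values on both sides of 0. UNC13A, the main isoform of brain synapses, ranged from 7.81 to 11.8 CPM in control and from 6.53 to 9.99 CPM in lens retinas. Its log2 difference was -0.29 ± 0.099 (SE, limma adjusted p = 0.141, and 0.218 with TMM factors), and 5 of 7 lens retinas lay below every control. UNC13C, related to the cerebellar isoform of mammals, measured 349 ± 17.1 CPM and 351 ± 15.5 CPM (mean ± SD, n = 7 each), with a log2 difference of 0.01 ± 0.039 (SE). UNC13B, which in mouse serves photoreceptor ribbon synapses, ranged from 70.2 to 94.5 CPM with a median of 73.5 CPM in control and from 78.7 to 116 CPM with a median of 82.9 CPM in lens retinas. The UNC13B log2 difference was 0.25 ± 0.090 (SE, limma adjusted p = 0.166).

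UNC13B lies on chromosome Z (8647585 to 8856945), and its 3 highest values were those of the libraries without W-linked transcripts. Among libraries with W-linked transcripts it averaged 74.0 ± 3.00 CPM in controls (SD, n = 6) and 83.3 ± 5.30 CPM after lens wear (SD, n = 5). Those values ran from 70.2 to 77.5 CPM in control and from 78.7 to 92.4 CPM in lens retinas. They did not overlap, but the share of all tested genes without overlap in this smaller subset was not counted. Among libraries without W-linked transcripts the 1 control had 94.5 CPM and the 2 lens retinas had 113 and 116 CPM. In a fit with W-linked expression as a covariate UNC13B passed as higher, with a log2 difference of 0.19 ± 0.043 (SE, limma adjusted p = 0.019), where 1.13% of all tested genes were called higher and 2.53% lower. In the libraries with W-linked transcripts alone, a restriction added after seeing the data, the difference was 0.17 ± 0.049 (SE, limma adjusted p = 0.088), with 0.719% of all tested genes called higher and 1.55% lower. The other members on chromosome Z were RAB3C, SV2C and SYT4. SYT4, a synaptotagmin whose first C2 domain binds calcium poorly, had 131, 132 and 133 CPM in the 3 libraries without W-linked transcripts and 106 to 124 CPM in the others. RAB3C values of the 3 libraries lay inside the range of the others, at 162 to 168 CPM beside 156 to 173 CPM. SV2C values lay at 61.8 to 64.9 CPM beside 55.3 to 64.8 CPM.

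**Figure D3:**
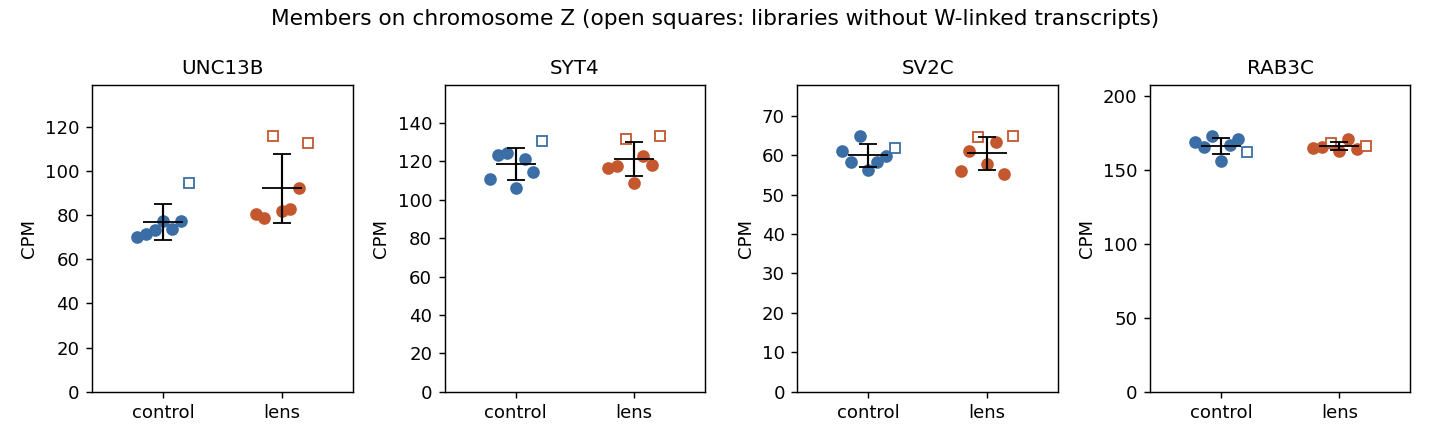
Level in CPM (vertical axis, from 0) in each control and lens retina for the 4 tested members on chromosome Z, with open squares for the 3 libraries without W-linked transcripts and black bars for mean and SD. For UNC13B the filled lens points start at 78.7 CPM, just above the highest filled control point at 77.5 CPM, and the open squares stand above the filled points of their group.

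Among vesicle membrane proteins, RAB3 GTPases and synapsins, 1 of 9 tested genes fell, none rose and 8 did not pass in limma at an adjusted p under 0.05. Beside them, 1.84% of all tested genes were lower and 0.916% higher. The median log2 difference of the 9 was -0.17 (-0.12 with TMM factors). At an unadjusted p under 0.05, 5 of the 9 were lower and 0 were higher, beside 12.5% and 3.67% of all tested genes. SYN2 (chromosome 12, 5065868 to 5209323, plus strand) encodes synapsin II, which links vesicles to actin, and in mammals synapsins I and II mark the conventional synapses of amacrine cells and are not found at ribbons. It ranged from 15.2 to 23.6 CPM with a median of 19.9 CPM in control and from 12.9 to 16.8 CPM with a median of 15.5 CPM in lens retinas, and 2 of 7 lens retinas were below every control. SYN2 fell by 0.32 ± 0.081 (SE, limma adjusted p = 0.0404). The call was lost in the exact permutation test (adjusted p = 0.115), which restates that its groups overlap. It was also lost when any 1 library other than control 58 or lens 55 was left out, 12 cases of 14. Adjusted p for SYN2 lay within 0.00999 to 0.115 over its alternatives. TIMP4, which lies inside SYN2 on the other strand, measured 0.355 CPM in controls and 0.330 CPM after lens wear.

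SYN3, the third synapsin, measured 12.4 ± 1.51 CPM in controls and 10.3 ± 2.0 CPM after lens wear (mean ± SD, n = 7 each, limma adjusted p = 0.212). The vesicle GTPase gene RAB3A had the most negative log2 difference of the 60, at -0.36 ± 0.105 (SE, limma adjusted p = 0.0802). It ranged from 5.40 to 7.94 CPM in control and from 3.75 to 6.52 CPM in lens retinas, with 5 of 7 lens retinas below every control. SV2B encodes a vesicle glycoprotein that mammalian photoreceptors and bipolar cells carry. It measured 218 ± 13.7 CPM in controls and 194 ± 11.5 CPM after lens wear (mean ± SD, n = 7 each), with 5 of 7 below every control and limma adjusted p = 0.0656. SYNGR3, a vesicle tetraspan protein, measured 13.3 ± 0.985 CPM and 11.7 ± 1.30 CPM (mean ± SD, n = 7 each) with limma adjusted p = 0.172, and 6 of 7 lens retinas were below every control. With TMM factors, limma adjusted p was 0.12 for RAB3A, 0.128 for SV2B and 0.313 for SYNGR3. The share of all tested genes with as many lens retinas outside the control range was not counted, here or for the other members.

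None of the 7 tested SNARE genes of release passed the test in limma at an adjusted p under 0.05, and 1 (14.3%), STX1A, was lower at an unadjusted p under 0.05, beside 12.5% of all tested genes. STX1A encodes the plasma membrane syntaxin of conventional synapses. It ranged from 53.7 to 60.8 CPM with a median of 56.1 CPM in control and from 40.8 to 57.4 CPM with a median of 49.2 CPM in lens retinas. STX1A had a log2 difference of -0.22 ± 0.063 (SE, limma adjusted p = 0.0656, and 0.0998 with TMM factors), and 5 of 7 lens retinas were below every control. It shares 4919 bases with MKS1, a gene of the same strand at 2.02 CPM in controls and 1.86 CPM after lens wear. STX3, the ribbon synapse syntaxin of mammals, measured 44.9 ± 3.67 CPM and 41.6 ± 3.02 CPM (mean ± SD, n = 7 each) with limma adjusted p = 0.38. SNAP25, their partner on the plasma membrane, measured 518 ± 37.7 CPM and 484 ± 28.4 CPM (mean ± SD, n = 7 each) with limma adjusted p = 0.348. The vesicle SNAREs VAMP1 and VAMP2 had log2 differences of 0.00 (0.00378) ± 0.072 (SE) and -0.09 ± 0.086 (SE), and the sign for VAMP1 turned in 7 fits that left out 1 library. STX2 and SNAP23, the forms of wider tissue expression, both had a log2 difference of -0.04. The sign for SNAP23 turned with TMM and median-of-ratios factors (to 0.0019 and 0.0026). STX2 shares 1236 bases with RIMBP2, a gene of the same strand at 182 CPM in controls and 161 CPM after lens wear.

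The synaptotagmins, a family of calcium sensors and of relatives that do not bind calcium, did not pass in either direction. Of 12 tested synaptotagmins, 0 were called in limma at an adjusted p under 0.05, beside 2.76% of all tested genes. The exact permutation test also called 0, which restates that the groups overlapped in all 12. At an unadjusted p under 0.05, 2 of the 12 (16.7%) were lower, SYT11 and SYT13, and 0 were higher, beside 12.5% and 3.67% of all tested genes. With TMM factors 0 of the 12 were lower at that threshold and 1 was higher. Their log2 differences had a median of -0.01 unscaled and of 0.03 with TMM factors, so it had no stable sign. SYT1, the sensor of fast release, ranged from 593 to 736 CPM in control and from 595 to 651 CPM in lens retinas, with a log2 difference of -0.06 ± 0.044 (SE, limma adjusted p = 0.53). SYT11, a synaptotagmin that does not bind calcium, measured 160.1 ± 5.30 CPM and 149 ± 7.46 CPM (mean ± SD, n = 7 each) with limma adjusted p = 0.171. SYT15, also without calcium binding, had the largest positive log2 difference of the 60 at 0.41 ± 0.207 (SE), but its spread was wide, from 3.93 to 10.5 CPM in control and from 4.73 to 12.6 CPM in lens retinas (limma adjusted p = 0.348). The remaining tested synaptotagmins SYT4, SYT6, SYT7, SYT9, SYT10, SYT12, SYT14 and SYT16 had log2 differences between -0.06 and 0.11. SYT2, a fast sensor of hindbrain and neuromuscular synapses in mouse, was at 0.591 CPM in controls and 0.555 CPM after lens wear and was not tested.

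The SNAREs left once the other roles were assigned form the group of other membrane steps. They include the endosomal STX7, STX12 and VAMP7 and the Golgi STX6 and STX16. The group was not chosen as a comparison set, and a part of its genes in release was not examined. In limma at an adjusted p under 0.05, 0 of 11 tested were called, beside 2.76% of all tested genes. Only 1 had an unadjusted p under 0.05 (STX12, higher, beside 3.67% of all tested genes). The exact permutation test called 0, which restates that the groups overlapped in all 11. Their log2 differences lay between -0.06 and 0.11, with a median of 0.00 (-0.00462) unscaled and 0.04 with TMM factors. STX12 measured 42.2 ± 2.31 CPM in controls and 45.1 ± 2.22 CPM after lens wear (mean ± SD, n = 7 each, limma adjusted p = 0.304), and 6 of 7 lens retinas were above every control. SNAP47 measured 46.4 ± 1.81 CPM and 45.3 ± 3.31 CPM (mean ± SD, n = 7 each), with a log2 difference of -0.04 ± 0.048 (SE).

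The 11 genes that did not reach the expression filter were STX5, STX11, STX19, STXBP6, SYNGR2, SYNJ2, SYT2, SYT8, SYT17, UNC13D and VAMP3, with means from 0.00917 to 0.754 CPM. None of them reached 1 CPM in more than 1 of 14 samples. The tested genes nearest the filter were SYT12, at 1.63 CPM in controls and 1.76 CPM after lens wear, and RAB3B, at 1.74 ± 0.377 CPM in controls and 1.67 ± 0.348 CPM after lens wear (mean ± SD, n = 7 each).

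Spread between retinas differed widely among the members. The coefficient of variation among controls had a median of 8.29% over the 60 tested, beside 11.2% over all tested genes, and ran from 2.30% for STXBP5 to 24.1% for BSN and 40.4% for SYT15. Lens 55 was the highest of the 7 lens retinas in 21 of 60 tested members (35%) and in 25.5% of all tested genes. Among these 21 were CTBP2 at 32.8 CPM, RAB3A at 6.52 CPM and UNC13A at 9.99 CPM. Control 62 was the highest control in 12 of 60 tested members (20%, beside 18.2% of all tested genes) and the lowest in 15, and control 64 was the highest in 14. The 12 included CTBP2 at 33.6 CPM, BSN at 7.50 CPM, RAB3A at 7.94 CPM and STX1A at 60.8 CPM. Without lens 55, 10 members were lower instead of 5, against 2.91% of all tested genes in that fit (0.988% were higher). No other fit that left out 1 library called more than 5 members lower. The 5 added were UNC13A (limma adjusted p = 0.0405), RAB3A (limma adjusted p = 0.0221), STX1A (limma adjusted p = 0.0163), SV2B (limma adjusted p = 0.0287) and SYNGR3 (limma adjusted p = 0.0307). All 5 are among the 21 members in which lens 55 was the highest lens retina, so leaving it out necessarily lowers their lens mean.

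**Figure D4:**
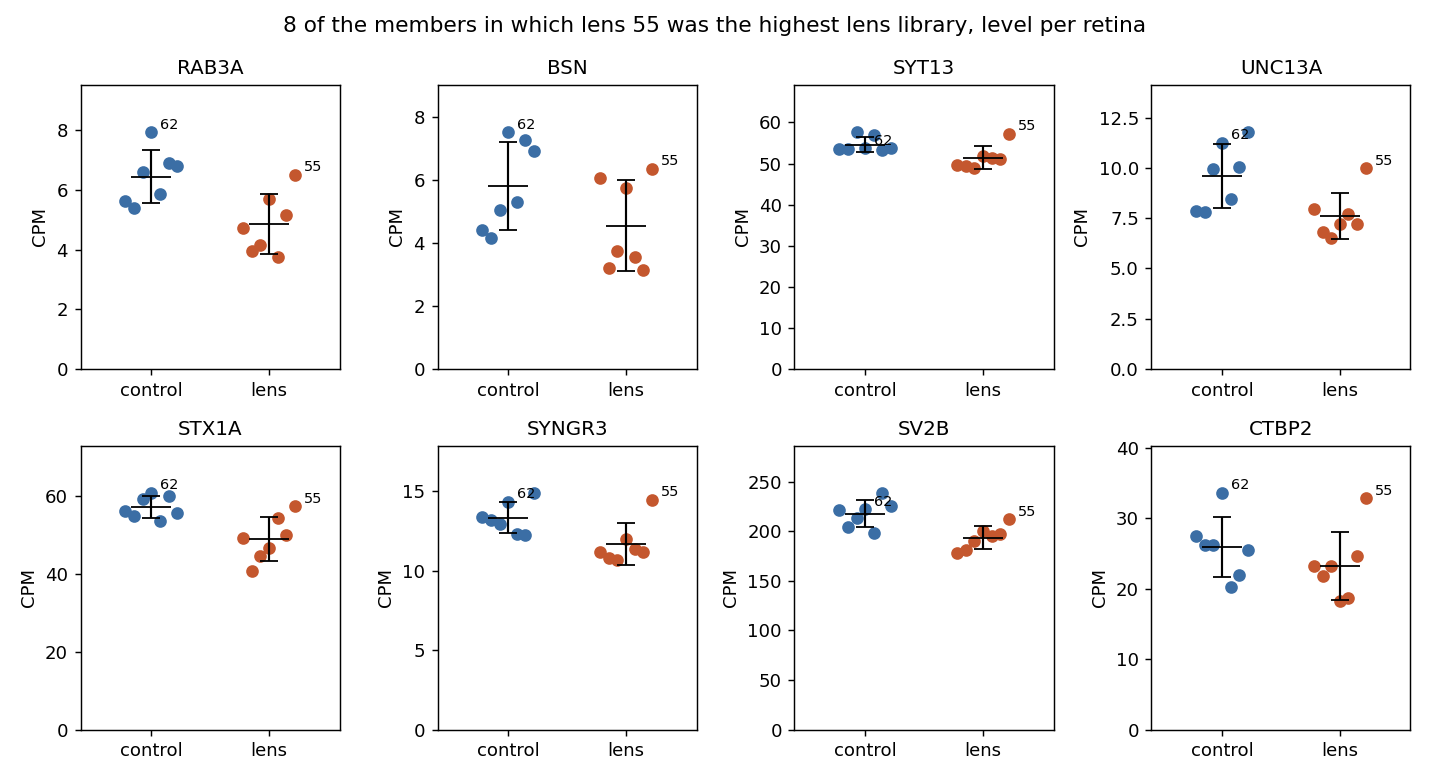
Level in CPM (vertical axis, from 0) in each control and lens retina for 8 of the 21 members in which lens 55 was the highest lens retina, with lens 55 and control 62 labelled and mean and SD as black bars. CTBP2 in lens 55 stood at 32.8 CPM, near control 62 at 33.6 CPM, and the remaining retinas of both groups lay lower.

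Library by library, the median of the members lay near that of all tested genes. This holds for the median and not for the calls. At an unadjusted p under 0.05 in limma, 15 of the 60 (25%) were lower and 3 (5%) higher, beside 12.5% and 3.67% of all tested genes. For each library, the median deviation of the 60 tested members from each gene's mean over all samples ran from 0.01 (0.00756) to 0.06 in control and from -0.06 to 0.03 in lens retinas on the log2(CPM + 1) scale. For all tested genes it ran from -0.01 (-0.00511) to 0.04 in control and from -0.06 to 0.02 in lens retinas. Lens 53 and lens 55, at 0.01 (0.0125) and 0.03, lay within the control range of the members' median.

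**Figure D5:**
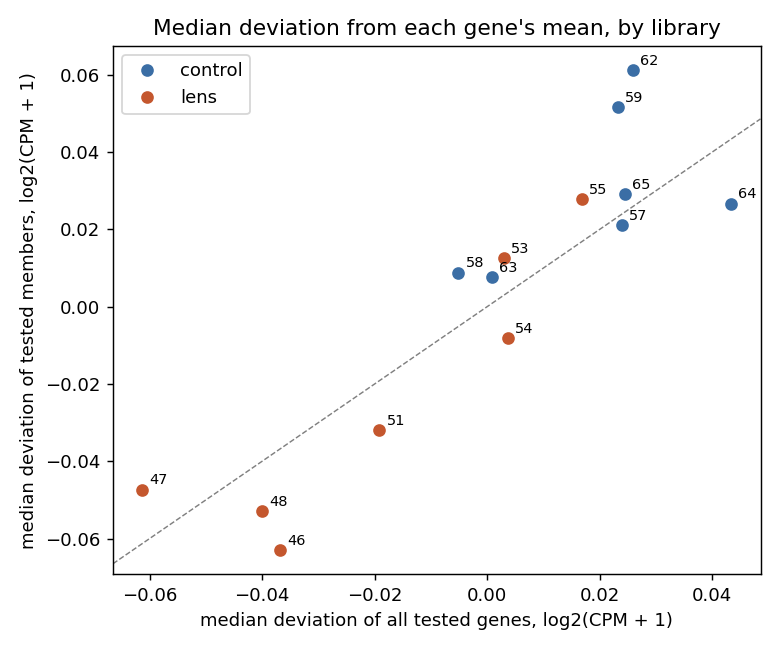
Median deviation of the 60 tested members (vertical axis) against that of all tested genes (horizontal axis) for each library, both on the log2(CPM + 1) scale, with the replicate number beside each point and a dashed line of equality. Lens 46, 47, 48 and 51 are at the lower left, and lens 53 and 55 lie among the controls.

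A second list, outside the symbol rule, held other vesicle cycle genes: complexins, transporters, clathrin adaptors, endophilins, proton pump subunits and their partners. Beside 1.84% lower and 0.916% higher of all tested genes, they gave 5 lower, 0 higher and 59 not passing of 64 tested. Their median log2 difference was -0.09 (-0.05 with TMM factors), and 24 of 64 (37.5%) had an unadjusted p under 0.05 and were lower, beside 15 of the 60 members (25%) and 12.5% of all tested genes. The 5 that fell were CPLX1 and CPLX4 (complexins, which clamp and time fusion), CADPS (priming of dense core vesicles), GAK (uncoating of clathrin vesicles) and SLC32A1 (the vesicular transporter for GABA and glycine). CPLX1 ranged from 39.2 to 49.7 CPM in control and from 34.7 to 40.0 CPM in lens retinas, a log2 difference of -0.26 ± 0.052 (SE, limma adjusted p = 0.00983). GAK ranged from 150 to 190 CPM in control and from 121 to 179 CPM in lens retinas, a log2 difference of -0.28 ± 0.073 (SE, limma adjusted p = 0.0466). With TMM factors CPLX1 and CPLX4 kept their calls, and CADPS (adjusted p = 0.126), GAK (adjusted p = 0.135) and SLC32A1 (adjusted p = 0.0504) did not. Without lens 55, 10 of the 64 were lower, beside 2.91% of all tested genes in that fit. RPH3A, NAPB, DNAJC5, DNAJC6, SH3GL1 and SH3GL2 were added and GAK was lost.

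Some cell type markers differed between the groups as well. The summed level of the 10 listed amacrine markers was 963 to 1076 CPM in control and 891 to 955 CPM in lens retinas, without overlap. The marker sums were not rescaled, and over all tested genes the median log2 difference was -0.04 before scaling. Of the 10 amacrine markers, 4 fell (TFAP2B, SLC32A1, SLC6A9 and MEIS2), beside 1.84% of all tested genes. All 10 had negative differences, beside 65% of all tested genes. At an unadjusted p under 0.05 in limma, 8 of the 10 were lower, beside 12.5% of all tested genes. SLC32A1 is also in the list of other vesicle cycle genes. The 13 listed photoreceptor markers summed to 1956 to 2491 CPM in control and 1753 to 2459 CPM in lens retinas. Of 12 tested, 3 were lower (PDE6B, PDE6C and ARR3) and 1 was higher (OPN1LW), beside 1.84% and 0.916% of all tested genes. Sums for bipolar markers (599 to 662 CPM and 570 to 641 CPM), ganglion cell markers (244 to 315 CPM and 210 to 269.8 CPM), horizontal cell markers (195 to 229 CPM and 193 to 226 CPM) and Muller glia markers (1075 to 1264 CPM and 1029 to 1327 CPM) overlapped between control and lens retinas. Of 8 tested ganglion cell markers all 8 had negative differences, beside 65% of all tested genes. Among the 8, 1 fell (NEFM), beside 1.84% of all tested genes. The part of these shifts in the differences of SYNJ1, DNM1, PCLO, STXBP5L and SYN2 was not tested.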

How the data were processed

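Expression in 14 retinas was deposited as CPM in 1 table. Its entries carry an offset of 0.0001, which was subtracted here. Per the submitters' processing notes, STAR, Partek and GRCg6a were used, without versions. For counting, strand setting and filters, the sources used here give nothing. Libraries were stranded total RNA after ribosomal RNA depletion, per the labels' protocols. Of the low values, 93.0% to 94.1% were whole reads within 0.02 of a read. No count model was used, since the table was taken to hold normalized values and not raw counts. Nothing in the labels says that libraries came from separate animals, so p-values measure the spread between these samples. The groups share no replicate number.

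limma 3.58.1 (R 4.3.3) was fitted with an intensity trend. The fit was also run on simulated data, with the same spread between samples set for every gene, unlike in these data. Its outcome is not given here, and no statement rests on it. Figures used matplotlib 3.10.9 (Python 3.11.15). Chromosome names come from the majority of symbols matched to RefSeq's GRCg7b table (15697 of 18631 symbols and 70 of 71 members matched, STX6 as a synonym of STX10). Members and lists were chosen with earlier results of these data known. The naming rule took called members, members without overlap between groups, the smallest p and highest level per role, and textbook release genes, 30 in all. A further member enters the counts and is not reported here. RAB3B, RAB3C, RIMS3, SNAP23, SNAP91, STX2, STXBP3, STXBP5, SV2C, SYNGR3, SYT4, SYT12, SYT13 and SYT15 were named after their values were seen, as were the genes given only by their place in a list. Promoters and sequences were not analysed here.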

Additional observations from a re-analysis of the deposited data

Results flagged for a closer look

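Dixon's test at the 95% level was applied to 84 groups of 7 retinas, over the 42 tested members described individually. In 8 groups 1 retina stood apart from the other 6, which chance does in about 1 of 20 groups. The 8 cannot be set against that rate, because 14 of the 42 members were named after their values were seen. RIMS3, SNAP91, SYNGR3, SYT13 and SYT15, flagged here, are among the 14. Lens 55 was the high value in 4 of the 8 groups: UNC13A at 9.99 CPM (others 6.53 to 7.96 CPM), SYNGR3 at 14.4 CPM (others 10.7 to 12 CPM), SYT13 at 57.3 CPM (others 49.0 to 51.9 CPM) and RIMS3 at 3.39 CPM (others 2.29 to 2.69 CPM). Control 65, which lacks W-linked transcripts, was high for the Z-linked UNC13B at 94.5 CPM (others 70.2 to 77.5 CPM) and low for SNAP91 at 94.8 CPM (others 102 to 106 CPM). Control 57 was high for SYT15 at 10.5 CPM (others 3.93 to 6.31 CPM). Lens 46 was low for SNAP47 at 38.5 CPM (others 44.2 to 48.4 CPM).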

How the results depend on the processing

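No paired analysis was possible because the groups share no replicate number. STXBP4, STXBP5L and SYNJ1 kept direction and call in every alternative tried, and DNM1 in all but the exact permutation test. The number of members called lower was 5 of 60 as reported, where 205 of 11132 tested genes were lower. It was 3 of 71 without a filter, where 157 of 18603 genes were lower. Of 60, it was 3 with TMM factors, median-of-ratios factors, a common sum, quantile normalization, the code letter as covariate or the exact permutation test. In that order, these called 0.943%, 0.961%, 1.16%, 1.1%, 1.51% and 0.97% of all tested genes lower. The number was 3 at a threshold of 0.01 and 8 at a threshold of 0.1. Those thresholds called 132 and 526 of all tested genes, both directions together. With a filter of 10 CPM it was 7 of 44 tested (adding STX1A and SV2B), where 259 of 5706 genes were lower. Array weights gave 6 (adding STX1A), where 248 of 11132 tested genes were lower. W-linked expression as covariate gave 6 (adding SV2B), where 2.53% of all tested genes were lower. The cause of these changes was not tested. The number ran from 3 to 10 when 1 library was left out, where 146 to 324 of 11132 tested genes were lower. It was 4 without the 3 libraries lacking W-linked transcripts, an alternative added after seeing the data, where 1.55% of all tested genes were lower. Members called higher numbered 2 with W-linked expression as covariate (STXBP4 and UNC13B), where 1.13% of all tested genes were higher, and 1 otherwise. Calls over all genes, 307 as reported, were 170 in the exact permutation test, 132 at a threshold of 0.01 and 526 at 0.1.

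Of the 60 members, 9 turned sign with TMM factors, 9 with median of ratios, 7 with quantile normalization and 5 with a common sum, each from negative to positive and each reported at -0.04 or closer to 0. Among the 42 tested members described individually, signs turned with no call on either side for RAB3C (0.041 with TMM, 0.042 with median of ratios, 0.043 with quantile scaling, 0.032 with a common sum, 8.4e-05 with the W covariate), SNAP47 (0.0057 with TMM, 0.0064 with median of ratios, 0.0015 with quantile scaling), SNAP23 (0.0019 with TMM, 0.0026 with median of ratios), RAB3B (0.00054 with the W covariate) and SV2C (-0.0054 with array weights, -0.0065 with the W covariate, -0.024 without the 3 libraries). Leaving out 1 library turned the log2 difference within these ranges: -0.016 to 0.0084 for RAB3C, -0.052 to 0.0017 for SNAP47, -0.0079 to 0.030 for SV2C, -0.0071 to 0.029 for UNC13C, -0.033 to 0.042 for VAMP1, -0.093 to 0.017 for RAB3B and -0.083 to 0.0019 for STX2. Members called higher stayed at 1 and calls over all genes ran from 236 to 434. Genes near 1 CPM rest on about 32.3 to 42.6 reads, which limits what can be seen for RAB3B and the untested members.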
